A study of Mus musculus with 6 samples.

Results

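The interleukin-6 family is described here through 9 genes, chosen from a list by name: the ligand genes Il6, Lif, Il11 and Clcf1 and the receptor genes Il6st, Osmr, Lifr, Il6ra and Cntfr. All 9 were found among the 19938 genes that could be named on the array, each through 1 probe set. The RNA came from cultured mouse BMSCs, the stromal cells of bone marrow, which can give rise to bone-forming and fat-storing cells. Wild type mice (WT, 3 arrays) were compared with mice labelled 188KO (KO188, 3 arrays), a knockout of the microRNA miR-188; the labels do not say in which cells the gene was deleted. All mice were on the C57BL/6 background and 6 months old, and all cultures were kept in osteogenic induction medium. It held dexamethasone at 100 nM, ascorbate-2-phosphate at 0.05 mM and beta-glycerophosphate at 10 mM.

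Interleukin-6 family cytokines signal through receptor complexes that share the subunit gp130, the product of Il6st. Each ligand adds its own partner: IL-6 and IL-11 first bind a private alpha receptor, LIF recruits the LIF receptor, oncostatin M recruits the oncostatin M receptor, and cardiotrophin-like cytokine binds the ciliary neurotrophic factor receptor. The complexes activate Janus kinases, which phosphorylate STAT3, and SOCS proteins then dampen the signal. In bone, these cytokines are known to act on osteoblasts and stromal cells, which make several of them, and to raise osteoclast formation through RANKL.

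Of the 9 genes 4 were higher in KO188 (Il6, Lifr, Il6ra and Osmr), 2 were lower (Lif and Il6st) and 3 did not pass the test (Il11, Clcf1 and Cntfr). The test was limma's with Benjamini-Hochberg adjustment over all 19938 genes and a threshold of 0.05, by which 29.8% of all genes passed, 13.3% as higher and 16.5% as lower in KO188. The largest change was that of Il6 itself, which rose 2.01-fold. The median change of the 9 was 0.04 on the log2 scale, against -0.01 over all tested genes. The 6 genes that passed also had no overlap between the groups' arrays, as had 41.5% of all tested genes. Calls were more frequent among brighter genes. With genes below the 50th percentile of level left out, 6 of 7 members passed, against 62.4% of the 9969 genes kept.

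The microRNA removed in KO188 is shown first, since it defines the comparison. RefSeq lists its mature arms on the minus strand of GRCm38.p6, mmu-miR-188-5p at chrX:7248031-7248051 and mmu-miR-188-3p at chrX:7247992-7248012. They are given 5′ to 3′ with the seed, bases 2 to 8, in capitals.
mmu-miR-188-5p: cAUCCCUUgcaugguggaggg
mmu-miR-188-3p: cUCCCACAugcaggguuugca
Whether any transcript of the family holds a match to these seeds was not analysed here.

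The promoters of Il6 and Lif are shown because these ligand genes moved in opposite directions. RefSeq windows were matched for 8 of the 9 genes, 15 windows in all; Clcf1 had none. The 250 bases before each start site were searched on both strands for 8 motifs. These were the NF-kB motif and the interferon element ISRE, the AP-1 motif TGANTCA, the C/EBP motif TTGCNNAA, the cyclic AMP element TGACGTCA and the STAT motif TTCNNNGAA. The glucocorticoid receptor core AGAACA was searched as well. So was the TATA box, read as TATAAA. Both sequences below run 5′ to 3′ on the plus strand of GRCm38.p6, Il6 at chr5:30012864-30013113 and Lif at chr11:4257318-4257567, with the motif matches in capitals.
Il6: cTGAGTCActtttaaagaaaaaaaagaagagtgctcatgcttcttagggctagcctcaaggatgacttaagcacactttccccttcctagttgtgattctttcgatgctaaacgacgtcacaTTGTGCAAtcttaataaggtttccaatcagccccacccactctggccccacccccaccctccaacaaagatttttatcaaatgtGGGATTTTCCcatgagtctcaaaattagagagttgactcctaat
Lif: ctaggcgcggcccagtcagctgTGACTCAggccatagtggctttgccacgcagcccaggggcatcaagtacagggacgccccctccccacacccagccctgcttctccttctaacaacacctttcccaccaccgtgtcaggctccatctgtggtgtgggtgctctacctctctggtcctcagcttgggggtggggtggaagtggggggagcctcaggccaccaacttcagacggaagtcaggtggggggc
In the Il6 window the AP-1 match began at position -249 from the start site, the C/EBP match at -128 and the NF-kB match at -44. The NF-kB letters occur in 0.356% of the 32851 RefSeq promoter windows of this length, the AP-1 letters in 6.75% and the C/EBP letters in 9.56%. Lif held 1 AP-1 match, at -228, and Il11 held 1, at -98 in 1 of its 2 windows. The matches did not overlap each other. The windows of Il6st, Osmr, Lifr, Il6ra and Cntfr held no match to any of the 8 motifs. Only these spellings were searched, so the shares and the lack of a match hold for them and not for looser forms of a motif. A match describes the letters only, and factor binding was not measured.

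Every sample had an Affymetrix array of its own, and levels are the deposited log2 values of a probe set. Array medians over all probe sets were 7.43 to 7.44 in WT and 7.46 to 7.50 in KO188. Every KO188 median thus lay above every WT median, a shift that median centring takes out. Arrays correlated across genes at 0.9988 or above within a group and at 0.9909 to 0.9912 between groups. Samples are called biological replicates, with no mouse or culture named, so the p-values measure the spread between these samples, which may be technical, and 3 arrays a group limit the precision. No label names a batch that holds both groups, so genotype and a shared culture difference cannot be told apart. The targeted gene's own probe set, Mir188, read 7.15, 7.13 and 7.16 in WT and 7.03, 7.13 and 7.09 in KO188, a change of -0.06 (SE 0.03, limma adjusted p = 0.24). It passed as lower with median centring (-0.11, adjusted p = 0.040) and quantile normalization (-0.10, adjusted p = 0.029). Its deposited levels met at 7.13 between the groups and do not show a loss of signal. What stretch of the gene this probe set covers is not known from the labels or files. As a rough guide to unexpressed genes, chosen after the data were seen, a level of 6.72 was used. It is the 95th percentile over 1194 genes of olfactory or vomeronasal receptors. Of 7 stromal markers measured 6 lay above it, Lepr below it (5.18 in WT), while of 10 leukocyte and macrophage markers 7 had 6-array means under it, among them Ptprc (6.26 in WT), Adgre1 (5.24) and Csf1r (6.29). The other 3, above it in both groups, were Cd68 (8.39 in WT), Cd14 (7.85) and Tyrobp (7.02).

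Il6 encodes interleukin-6, the cytokine that gives the family its name. Its level was 8.05, 8.02 and 7.97 on the 3 WT arrays and 9.18, 8.98 and 8.90 on the 3 KO188 arrays. Every KO188 array lay above every WT array, by at least 0.85, and the KO188 arrays were more spread out, with replicate 1 the highest. The means were 8.01 ± 0.04 (SD, n = 3) and 9.02 ± 0.14 (SD, n = 3), a log2 change of 1.01 (SE 0.07, 95% interval 0.84 to 1.18, limma adjusted p = 1.1e-04). Only 1.18% of tested genes had a larger change in either direction. In bulk RNA, a higher share of cells that make a transcript and more of it per cell cannot be told apart.

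The other ligand genes did not follow Il6. Lif encodes leukemia inhibitory factor, a cytokine that signals through the LIF receptor paired with gp130. Its level was 8.27, 8.09 and 8.26 in WT and 7.98, 7.95 and 7.97 in KO188. All KO188 arrays lay under all WT arrays, with a gap of 0.11 set by WT replicate 2, the lowest of its group. The log2 change was -0.24 (SE 0.05, 95% interval -0.36 to -0.12, adjusted p = 0.012), or 1.18-fold lower in KO188.

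Il11 encodes interleukin-11, a cytokine of stromal cells that is known to act in bone formation and blood cell production. Its level was 6.74, 6.98 and 6.87 in WT and 6.87, 7.02 and 6.83 in KO188, just above the level of 6.72 that serves as a guide to unexpressed genes. The groups overlapped, and the change of 0.04 did not pass (95% interval -0.13 to 0.22, adjusted p = 0.72). Clcf1 encodes cardiotrophin-like cytokine factor 1, a ligand of the ciliary neurotrophic factor receptor. Its level was 9.74, 9.73 and 9.78 in WT and 9.77, 9.76 and 9.74 in KO188. The groups overlapped almost fully, and the change was 0.01 with a narrow 95% interval of -0.06 to 0.07 (adjusted p = 0.89).

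**Figure D1:**
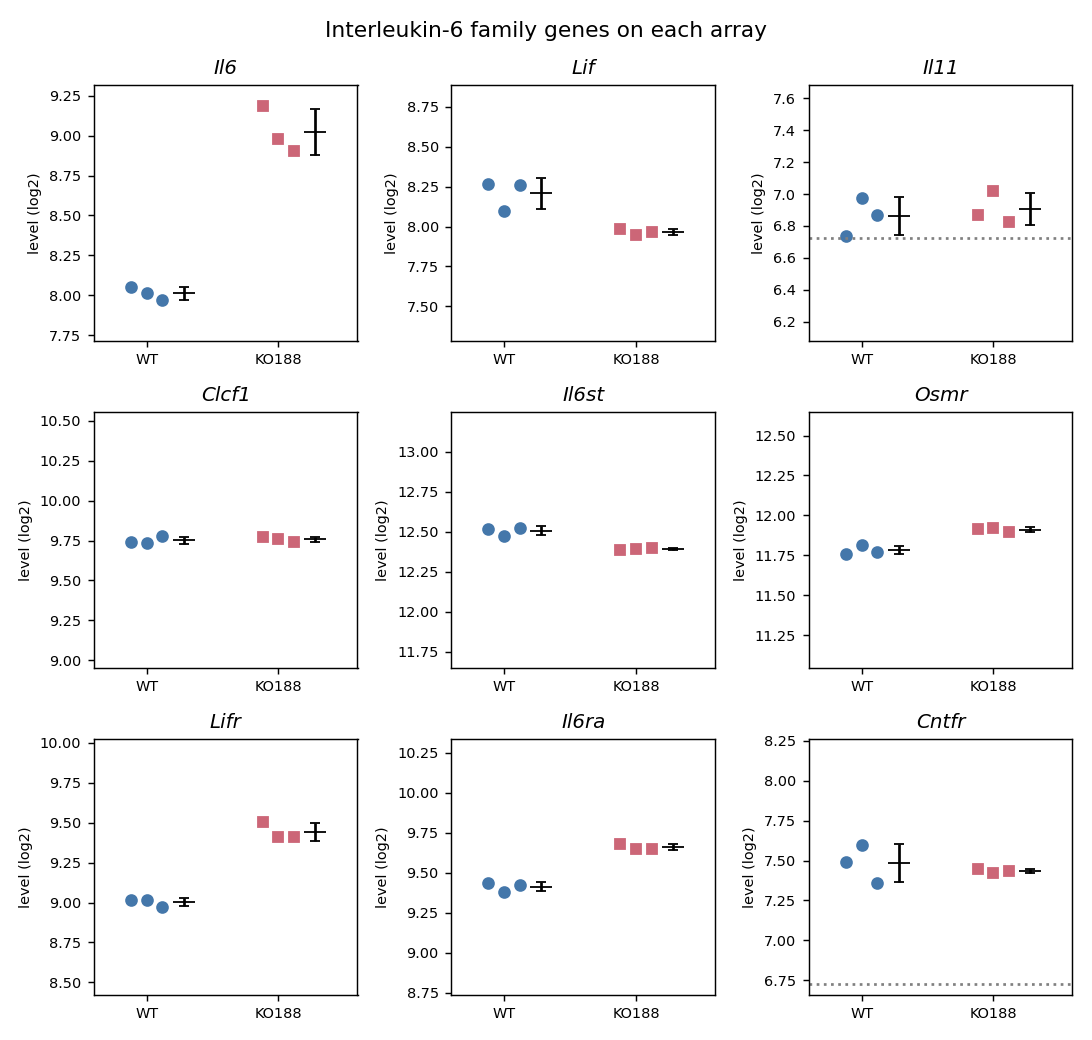
Level of each of the 9 genes (log2, vertical axes all spanning the same range) on each array, WT as blue circles and KO188 as red squares, with the group mean and SD (n = 3) in black beside the points. The dotted line marks the guide level of 6.72 where it falls in range; Il6 shows the widest gap between groups, and Il11, Clcf1 and Cntfr overlap.

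Among the receptor genes the shared subunit fell slightly while 3 subunits that pair with it, Lifr, Il6ra and Osmr, rose. Il6st encodes gp130, the signal transducer common to the family. Its level was 12.52, 12.48 and 12.52 in WT and 12.39, 12.39 and 12.40 in KO188. Every KO188 array was lower than every WT array, by at least 0.08. The log2 change was -0.12 (SE 0.03, 95% interval -0.18 to -0.05, adjusted p = 0.016), or 1.08-fold lower. This call was lost with quantile normalization (-0.07, adjusted p = 0.072) and without WT replicate 1 (-0.11, adjusted p = 0.058).

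Lifr encodes the LIF receptor, which pairs with gp130 for LIF, cardiotrophin and ciliary neurotrophic factor. Its level was 9.02, 9.02 and 8.97 in WT and 9.51, 9.41 and 9.41 in KO188. The groups were 0.39 apart at their closest arrays. The log2 change was 0.44 (SE 0.04, 95% interval 0.35 to 0.52, adjusted p = 2.0e-04), a 1.36-fold rise, which 5.38% of tested genes exceeded in size. Il6ra encodes the alpha receptor that binds IL-6 before gp130 joins. Its level was 9.43, 9.38 and 9.42 in WT and 9.68, 9.65 and 9.65 in KO188. The groups did not overlap, and the log2 change was 0.25 (SE 0.03, 95% interval 0.18 to 0.31, adjusted p = 7.7e-04), a 1.19-fold rise. For Lifr and Il6ra the deposited values of KO188 replicates 2 and 3 were identical to the last digit, as was a pair of arrays within a group for 26.5% of tested genes. Such ties narrow the measured spread, and both calls also held without either of the tied arrays.

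Osmr encodes the oncostatin M receptor, which pairs with gp130 for oncostatin M. Its level was 11.76, 11.81 and 11.77 in WT and 11.92, 11.92 and 11.89 in KO188. The groups were separated by 0.08. The log2 change was 0.13 (SE 0.03, 95% interval 0.06 to 0.19, adjusted p = 0.011), a 1.09-fold rise, and the call was lost with each array centred on its median (0.08, adjusted p = 0.075). Cntfr encodes the ciliary neurotrophic factor receptor, best known from neurons and muscle. Its level was 7.49, 7.60 and 7.36 in WT and 7.45, 7.42 and 7.43 in KO188. The KO188 arrays lay within the range of the WT arrays, and the change of -0.05 did not pass (95% interval -0.19 to 0.09, adjusted p = 0.58).

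Since small changes depend on how arrays are scaled, changes of 1 member were also read relative to another within each array, where a constant shift of an array cancels. The 5 pairs given were chosen after their values were seen, so their differences are a description, with no test. Relative to Il6st, the shared subunit, the change was 0.55 higher for Lifr (SD 0.04 in WT and 0.06 in KO188, n = 3 each), 0.36 higher for Il6ra (SD 0.01 and 0.02) and 0.24 higher for Osmr (SD 0.05 and 0.02). Lifr rose by 0.31 more than its relative Osmr (SD 0.03 and 0.05), and Il6 changed by 1.25 more than Lif (SD 0.11 and 0.13).

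**Figure D2:**
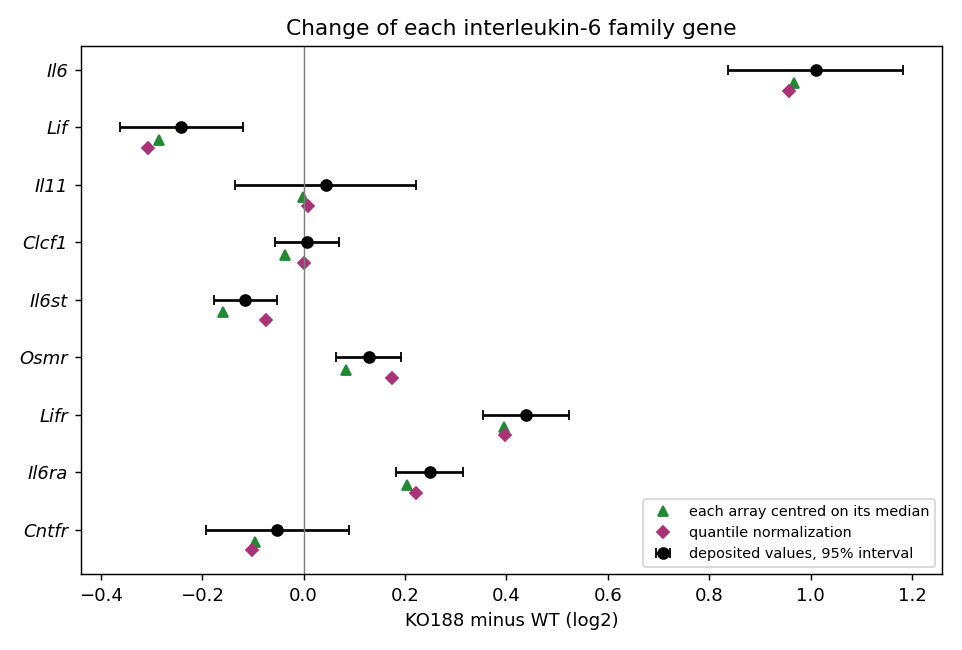
Change of each gene, KO188 minus WT (log2, horizontal axis), on the deposited values as black circles with 95% intervals from limma (n = 3 arrays a group), and, without intervals, with each array centred on its median (green triangles) or with quantile normalization (purple diamonds). Il6, Lifr and Il6ra stay well above 0 under all 3 scalings, while Il6st and Osmr lie within 0.2 of 0.

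The other ligands and receptors of the family that were read gave no call. Of 8 further family genes measured 0 passed limma's test, with 0 at an unadjusted p under 0.05 as well. Over all tested genes 29.8% passed, but none of the 8 reached the 50th percentile of level. Osm, which encodes oncostatin M, the ligand of the Osmr product, lay under the guide in both groups, at 6.12 ± 0.10 (SD, n = 3) in WT and 6.30 ± 0.13 in KO188 (change 0.18, adjusted p = 0.15). The changes of the 8 ran from -0.02 to 0.18, and 3 of them had 6-array means under the guide.

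Genes of the signalling chain below the receptors, listed with the receptor-shedding protease genes Adam10 and Adam17, moved in both directions. Of 22 measured genes 7 rose, 4 fell and 11 did not pass, with a median change of 0.03. Over all tested genes 29.8% passed. With genes below the 50th percentile of level left out, 12 of 20 in this list passed, against 62.4% of all genes kept. Among the kinases, Jak2 rose 1.70-fold (log2 change 0.77, SE 0.03, adjusted p = 5.8e-06), whereas Jak1, the main kinase bound to gp130, changed by 0.02 (adjusted p = 0.66). Stat3, the transcription factor gene at the centre of the pathway, rose 1.17-fold (0.23, adjusted p = 0.0022), and Gab1, an adaptor gene, rose 1.26-fold. Of the feedback inhibitors, Socs1 rose 1.66-fold (0.73, adjusted p = 7.4e-06) and Socs2 rose 1.32-fold (0.40, adjusted p = 3.2e-04). Socs3, whose product binds gp130 itself, changed by -0.08 and did not pass (adjusted p = 0.15), though it passed as lower with median centring and with quantile normalization (-0.13 in each).

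The 4 genes of the signalling list that fell were the protease genes Adam10 and Adam17 and the phosphatase genes Ptpn11 and Ptpn6. Adam10 and Adam17 encode membrane proteases known to shed receptors, the IL-6 receptor among them, and fell by 0.27 (adjusted p = 0.0010) and 0.15 (adjusted p = 0.019) on the log2 scale. Ptpn11, the gene of the phosphatase SHP2, and Ptpn6, that of SHP1, both fell by 0.13 (adjusted p = 0.028 and 0.041). The calls of Adam17, Ptpn11 and Ptpn6 were each lost on leaving out any of at least 4 of the 6 arrays. The count of calls in this list was 7 without WT replicate 1 and 7 without WT replicate 3.

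Known targets of STAT3 did not move together. Of 22 measured targets 7 rose, 5 fell and 10 did not pass, with a median of -0.04, while 29.8% of all tested genes passed. The lists share genes, so their counts are not separate. Stat3 and Socs3 are also in the signalling list. Fos, Cebpb and Cebpd are also among the regulators of the Il6 transcript below. With genes below the 50th percentile of level left out, 13 of 18 targets passed, against 62.4% of all genes kept. Hp, the haptoglobin gene, rose 1.52-fold (0.60, adjusted p = 9.6e-05) and Saa3, a serum amyloid gene, rose 1.35-fold (0.43, adjusted p = 6.5e-04). Bcl6, a transcriptional repressor gene, rose 1.41-fold. The 5 that fell were Birc5 (-0.31), an inhibitor of cell death used in mitosis, Mcl1 (-0.28), a survival gene, Bcl3 (-0.21), Ccnd1 (-0.12), the cyclin D1 gene, and Hif1a (-0.11). The calls of Ccnd1 and Hif1a were each lost with quantile normalization and on leaving out any of at least 4 of the 6 arrays.

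**Figure D3:**
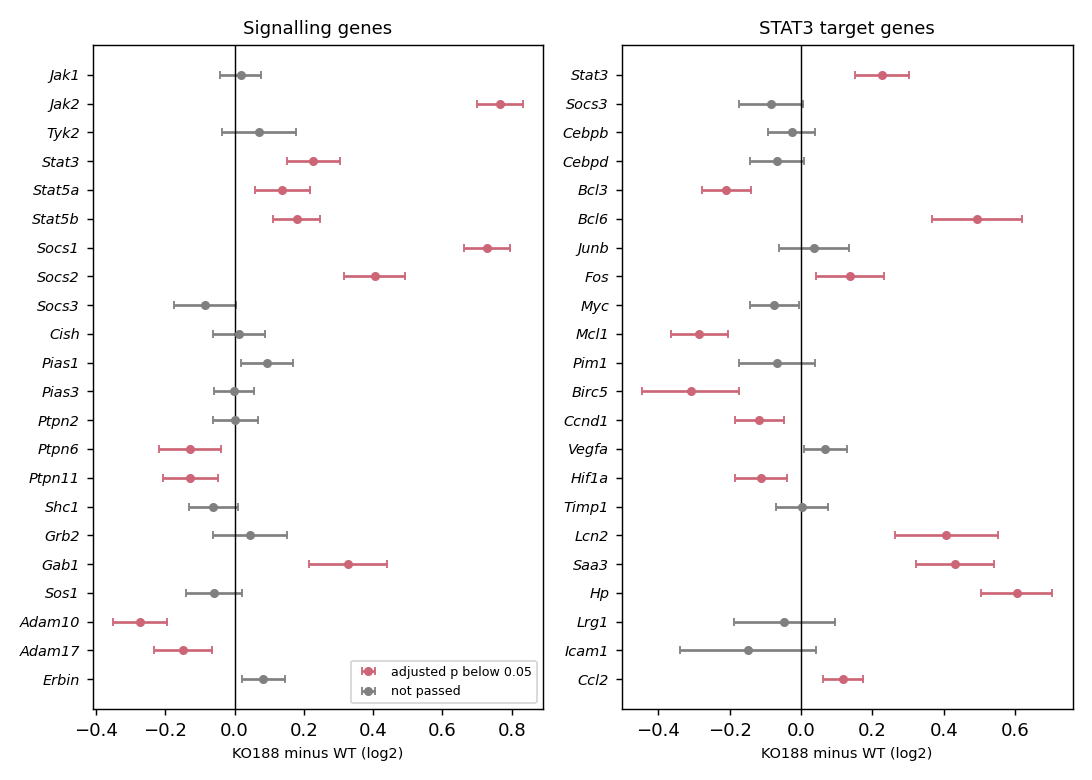
Changes, KO188 minus WT (log2, horizontal axes), of the measured genes of the signalling list (left) and of the STAT3 target list (right), with 95% intervals from limma (n = 3 arrays a group), in red where the adjusted p was below 0.05. Jak2 and Socs1 lie farthest to the right among signalling genes, and the targets spread to both sides of 0.

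Genes that control the Il6 transcript were read beside Il6, whose promoter above holds AP-1, C/EBP and NF-kB letters. Of 16 measured genes 7 rose, 2 fell and 7 did not pass, while 29.8% of all tested genes passed. With genes below the 50th percentile of level left out, 9 of 14 regulators passed, against 62.4% of all genes kept. The largest rises were in genes of RNA-binding proteins that bind AU-rich elements and speed messenger RNA decay, Zfp36l1 (1.67-fold, 0.74, adjusted p = 1.1e-04) and Zfp36 (1.45-fold, 0.54, adjusted p = 6.9e-05). Arid5a, whose product is known to stabilise the Il6 transcript, rose 1.18-fold (0.24, adjusted p = 0.0025), and Atf3, a stress-induced transcription factor gene, rose 1.43-fold (0.51, adjusted p = 7.8e-04). The 2 that fell were Elavl1 (-0.21), which encodes the RNA-stabilising protein HuR, and Creb1 (-0.17). The AP-1 genes Fos (0.14, adjusted p = 0.041) and Jun (0.13, adjusted p = 0.035) rose. Both calls were lost with median centring (0.09 in each, adjusted p = 0.14 and 0.16) and on leaving out any of 5 of the 6 arrays. Of the NF-kB and C/EBP genes in the list, Rela (-0.08), Rel (-0.02), Nfkbiz (0.03), Cebpb (-0.03) and Cebpd (-0.07) did not pass, nor did Nr3c1 (-0.02), the gene of the glucocorticoid receptor that dexamethasone binds. The endonuclease gene Zc3h12a, whose product cleaves the Il6 transcript, was at 9.51 in both groups.

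A list of bone genes, labelled bone effector genes here, was read last. It mixes genes of signals to osteoclasts with genes of bone-forming cells, such as Alpl and Sp7. The part of the interleukin-6 family in their changes was not tested. Of 9 measured genes 5 rose and 0 fell. Over all tested genes 29.8% passed, 13.3% as higher and 16.5% as lower in KO188. With genes below the 50th percentile of level left out, 4 of 5 bone genes passed, against 62.4% of all genes kept. Tnfsf11, the RANKL gene, had means of 8.11 ± 0.05 (SD, n = 3) in WT and 8.14 ± 0.16 in KO188 (change 0.03, adjusted p = 0.83). Sost, the gene of the bone formation inhibitor sclerostin, changed by -0.09 (adjusted p = 0.22). The 5 that rose were Alpl (2.08), the alkaline phosphatase gene, Tnfrsf11b (0.94), which encodes the RANKL decoy osteoprotegerin, Sp7 (0.36), the osterix gene, whose WT mean of 6.41 lay under the guide level, Wnt5a (0.15) and Csf1 (0.11). The calls of Alpl and Tnfrsf11b held under every alternative tried, while the count for the list fell to 2 without WT replicate 1 and to 3 without WT replicate 2, WT replicate 3 or KO188 replicate 3, and with median centring.

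**Figure D4:**
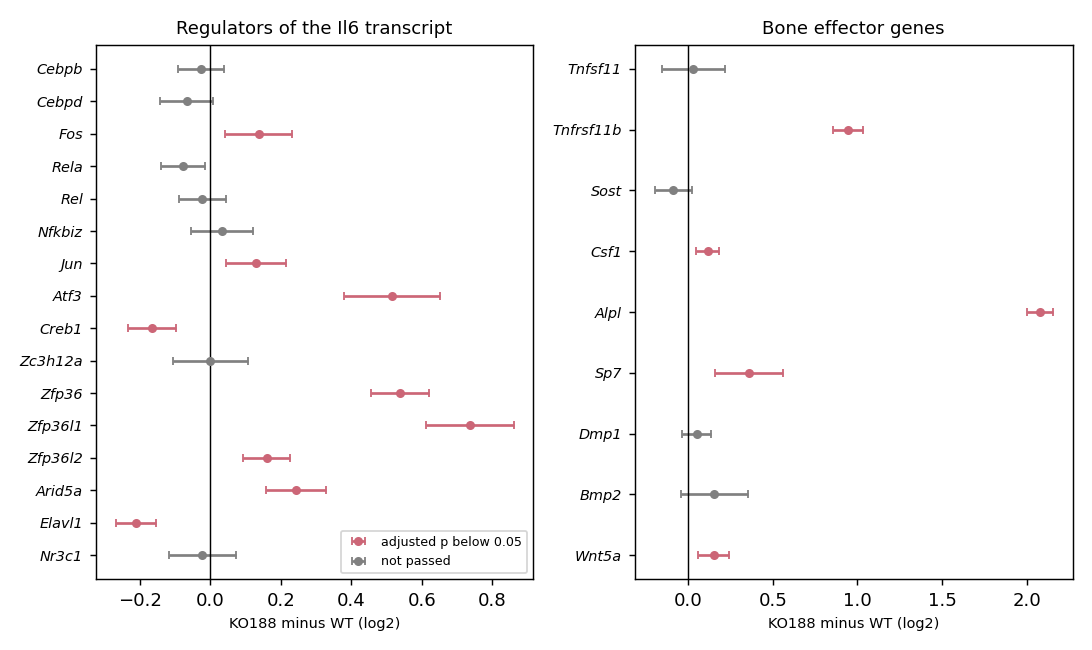
Changes, KO188 minus WT (log2, horizontal axes, which differ between the panels), of the measured regulators of the Il6 transcript (left) and of the bone effector genes (right), with 95% intervals from limma (n = 3 arrays a group), in red where the adjusted p was below 0.05. Zfp36l1 and Zfp36 lie farthest to the right among the regulators, and Alpl among the bone genes.

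Some markers of cell types changed, and a summed level is led by the brightest genes of its list. The median log2 change was -0.03 over the 10 macrophage markers, 0.02 over the 6 osteoclast markers and 0.15 over the 7 stromal markers. Over all tested genes 29.8% passed limma's test. The summed level of 10 macrophage markers was 10.18 to 10.19 on the WT arrays and 10.23 to 10.32 on the KO188 arrays, with 1 marker past the test (Mpeg1, 1.32, from a WT mean of 5.72, under the guide level, to 7.04). The summed level of 6 osteoclast markers was 9.70 to 9.72 in WT and 10.06 to 10.19 in KO188, with 1 past the test (Ctsk, 0.88), and that of 7 stromal markers was 14.53 to 14.57 against 14.78 to 14.80, with 5 past it. Of 7 lymphocyte and 6 granulocyte markers 0 passed limma's test, with 0 at an unadjusted p under 0.05. Of 6 endothelial markers 1 passed the test (Kdr, 0.24, under the guide level in both groups), with sums of 9.01 to 9.03 in WT and 9.01 to 9.05 in KO188, and of 6 adipocyte markers 1 fell (Fabp4, -0.33), with sums of 9.72 to 9.74 and 9.62 to 9.73. The part of these markers in the changes of the interleukin-6 family was not tested.

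Among genes without Gm or Rik symbols, those whose pattern over the 6 arrays was most like that of Il6 were named. The measure was the smallest difference after each gene was set relative to its WT mean. The genes named were Edil3 (root mean square difference 0.04 on the log2 scale), Zup1 (0.07) and Rnf114 (0.07), with changes between 0.998 and 1.02.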

How the data were processed

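The authors deposited log2 values of 35556 probe sets on 6 arrays. Per the submitters' processing notes, Affymetrix Expression Console, Partek and RMA were used, in roles and versions not stated there; RMA corrects background, equalises arrays and summarises probes, and it compresses changes of dim genes. No source used here gives the authors' genome build or probe annotation.

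Probe sets were named through GEO's platform annotation; 21789 have 1 gene symbol, 1621 have several and were not named, and 12146 are not listed. For the 999 genes with several probe sets the brightest over 6 arrays was used, leaving 19938 genes with no filter on dim values. Groups came from the sample titles. The comparison of KO188 with WT used R 4.3.3 and its package limma 3.58.1 (lmFit, eBayes without trend, no covariate, Benjamini-Hochberg over all genes, threshold 0.05), tested on simulated arrays beforehand. Fold changes are 2 to the power of the log2 change. Summed marker levels are log2 of summed linear values.

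Alternatives were median centring, quantile normalization, leaving out genes below the 50th percentile, averaging probe sets, testing each probe set, an intensity trend, a replicate block and each array left out; leaving out tied genes was added after the data were seen. The members and lists were chosen with earlier results of these data known. Named from each list were up to 6 passed genes by p and all passed genes where a direction had 5 or fewer; Fos, Jun and the markers and not-passed genes given as values were chosen after their values were seen. Sequences are from RefSeq tables of GRCm38.p6. Figures used matplotlib 3.10.9 in Python 3.11.15.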

Additional observations from a re-analysis of the deposited data

How the results depend on the processing

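Over 14 alternatives the number of called members ran from 4 to 6. It was 4 with tied genes left out, a fit that does not hold Lifr and Il6ra, and 5 to 6 with 1 array left out. Il6 kept its direction and call in all (log2 change 0.93 to 1.07, adjusted p 4.0e-06 to 0.0018), as did Lif (-0.31 to -0.21, adjusted p 0.0020 to 0.0497), Lifr and Il6ra (in the 13 that hold them). Il6st was no longer past the threshold in 3 (adjusted p 0.058 to 0.072) and Osmr in 1 (0.075). Signs changed for genes that were never called: with median centring Il11 (-0.00030), Clcf1 (-0.037), Jak1 (-0.027) and Tnfsf11 (-0.014), and with quantile normalization Tnfsf11 (-0.035). With 1 array left out, Il11 ran from -0.018 to 0.10 (-0.013 without KO188 replicate 2), Clcf1 from -0.0020 to 0.020 (-0.00063 without KO188 replicate 1), Tnfsf11 from -0.040 to 0.11 and Cntfr from -0.113 to 0.0056. Mir188 passed as lower with median centring (-0.11, adjusted p = 0.040) and quantile normalization (-0.10, adjusted p = 0.029). Calls among bone effector genes were 5 on the deposited values, 3 with median centring and 2 to 4 with 1 array left out; those among signalling genes were 11 and 7 to 10. The cause of these shifts was not tested, and the fits with 1 array left out also hold fewer samples. With 1 array left out, calls ran from 9 to 10 of 12 for STAT3 targets, from 7 to 8 of 9 for regulators of the Il6 transcript and from 4835 to 5553 of 5937 over all genes, and stayed at 0 for the other ligands and receptors. Of all called genes 44.5% were higher in KO188, and 30.8% with median centring. Same-numbered arrays deviated from their group means with correlations of 0.018, 0.010 and -0.028, so they shared little deviation. Whether the samples were prepared in pairs is not known from the labels. With a replicate block 5 members, 9 signalling genes, 8 STAT3 targets, 7 regulators, 3 bone effector genes and 5019 genes in all were called; Il6st was the member no longer called (adjusted p = 0.062).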

Other observations

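Several family genes are neighbours in the mouse genome: Lif lies next to Osm, Il6st next to Il31ra, and Osmr between Lifr and Rictor, by the order of protein-coding genes in the RefSeq table of GRCm38.p6. Osmr (0.13), Lifr (0.44) and Rictor (0.09, limma adjusted p = 0.038), the gene of an mTOR complex 2 subunit, all rose in KO188. Egflam, on the other side of Lifr, changed by -0.01 (adjusted p = 0.87). Rictor no longer passed after median centring (0.05, adjusted p = 0.31), with a replicate block, or on leaving out any of 5 of the 6 arrays. The partners of the other pairs did not follow each other: Lif fell while Osm changed by 0.18 (adjusted p = 0.15), and Il6st fell while Il31ra, under the guide level, changed by -0.0017 (adjusted p = 0.97).

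Of the 16 protein-coding genes next to a member that are no members themselves, 2 rose and 4 fell, which is 37.5% against 29.8% of all tested genes. Besides Rictor, Rad9a (0.10, adjusted p = 0.049), a DNA damage checkpoint gene next to Clcf1, rose, a call lost in every fit with an array left out. The 4 that fell were Ankrd55 (-0.43, adjusted p = 2.5e-04), which lies next to Il6st, She (-0.19) and Atp8b2 (-0.18), which flank Il6ra, and Pold4 (-0.16), next to Clcf1. Of these, the Ankrd55 call held under every alternative tried, while those of She, Atp8b2 and Pold4 were each lost on leaving out any of at least 2 of the 6 arrays. These neighbours were looked at after the members' values were seen.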
